A study of Mus musculus with 6 samples.

Results

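The NF-kB subunits and their inhibitors were followed in BCR-ABL1 transformed pre-B cells of the mouse, a model of the acute lymphoblastic leukaemia (ALL) that carries the Philadelphia chromosome. The group was set by name: Nfkb1, Nfkb2, Rel, Rela, Relb, Nfkbia, Nfkbib, Nfkbie, Tnfaip3 and Bcl3, taken wherever a probe set of the Affymetrix array carried the symbol. Of these 10 genes 9 were measured, each by 1 probe set, among 19936 genes tested in all, and Nfkb1 was not analysed here. Cells labelled wild-type, from C57Bl6 mice aged 4 weeks, received either pMIG, a retroviral vector that also encodes green fluorescent protein (GFP), or pMIG-IKZF1, the same vector with IKZF1 inserted. IKZF1 encodes Ikaros, a zinc finger protein that regulates transcription in lymphocytes. Total RNA was taken from cells sorted for GFP 3 days after transduction, with 3 arrays per group. Both groups share the BCR-ABL1 transformation, and the labels do not say whether arrays of a group stem from separate cultures, so p-values cover no more than the spread between these arrays, and that spread may be technical. Each array reads a whole sorted population, in which more cells with a transcript and more transcript per cell cannot be told apart.

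NF-kB is a family of transcription factors that bind DNA as pairs of Rel proteins. Inhibitor of kappaB (IkB) proteins hold these pairs inactive until a kinase complex, IKK, marks the inhibitor for destruction, which releases mainly pairs with RelA or c-Rel. In a slower branch, NF-kB-inducing kinase drives the processing of the Nfkb2 product, which then works with RelB. Several genes of the family, including those of inhibitors, are known targets of NF-kB itself. In B-lineage cells the pathway is known for carrying signals of the B cell receptor, CD40 and Toll-like receptors to genes of survival and activation.

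The sequences around the start sites show a feature that the choice of genes did not use. RefSeq start-site windows (build GRCm38.p6, 250 bases before to 50 after each start, 300 bases in length) were matched for 8 of the 9 measured genes, with 11 windows between them, and Relb was not matched. The kappaB consensus, searched on both strands, stood in 8 of the 11 windows and in 6 of the 8 genes, against 4.51% of all 32851 windows and 5.14% of all 27025 genes. Nfkbib and Rela held no match in their windows. The 250 bases before a start are printed for Nfkb2 and Nfkbia, the subunit gene and the inhibitor gene with the smallest adjusted p, with the consensus in capitals.
Nfkb2 (chr19:46304487-46304736, plus strand): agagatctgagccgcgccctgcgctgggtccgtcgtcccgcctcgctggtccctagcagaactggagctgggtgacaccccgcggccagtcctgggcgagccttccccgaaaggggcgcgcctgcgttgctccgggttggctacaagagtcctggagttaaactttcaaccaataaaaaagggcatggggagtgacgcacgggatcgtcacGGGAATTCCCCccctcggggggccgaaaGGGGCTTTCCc
Nfkbia (chr12:55492648-55492897, minus strand): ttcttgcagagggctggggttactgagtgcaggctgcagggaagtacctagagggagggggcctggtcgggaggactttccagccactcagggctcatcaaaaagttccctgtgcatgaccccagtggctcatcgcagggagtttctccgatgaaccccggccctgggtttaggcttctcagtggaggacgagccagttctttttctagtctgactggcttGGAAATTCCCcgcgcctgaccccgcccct
In Nfkb2 these capitals mark a stretch that begins 39 bases before the start and reads as the consensus on both strands, and a further match that begins 11 bases before it. In Nfkbia the match begins 29 bases before the start, on the opposite strand.

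The other matches are shown as windows of 30 bases, again with the consensus in capitals, so that the sites can be compared between the genes.
Nfkb2 (chr19:46305695-46305724, plus strand): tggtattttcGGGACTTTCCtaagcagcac
Nfkb2 (chr19:46305449-46305478, plus strand): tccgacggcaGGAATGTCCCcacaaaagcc
Rel (chr11:23771042-23771071, minus strand): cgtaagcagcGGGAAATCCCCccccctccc
Nfkbie (chr17:45555584-45555613, plus strand): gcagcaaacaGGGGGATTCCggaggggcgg
Bcl3 (chr7:19822734-19822763, minus strand): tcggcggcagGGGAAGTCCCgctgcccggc
Tnfaip3 (chr10:19015403-19015432, minus strand): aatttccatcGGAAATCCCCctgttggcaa
Tnfaip3 (chr10:19015516-19015545, minus strand): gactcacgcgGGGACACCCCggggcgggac
The first of these Nfkb2 sites lies in the windows of 2 start sites of that gene, 11 bases after the one and 225 before the other. The core of sequences that Ikaros is known to bind, TGGGAA, was searched likewise. It shares GGGAA with many kappaB sequences, so that the motifs can overlap. It stood in 3 of the 8 genes, Rel, Nfkbib and Tnfaip3, each time outside the kappaB match, and in 28.3% of all genes. These matches describe letters in the windows and not bound sites.

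**Figure D1:**
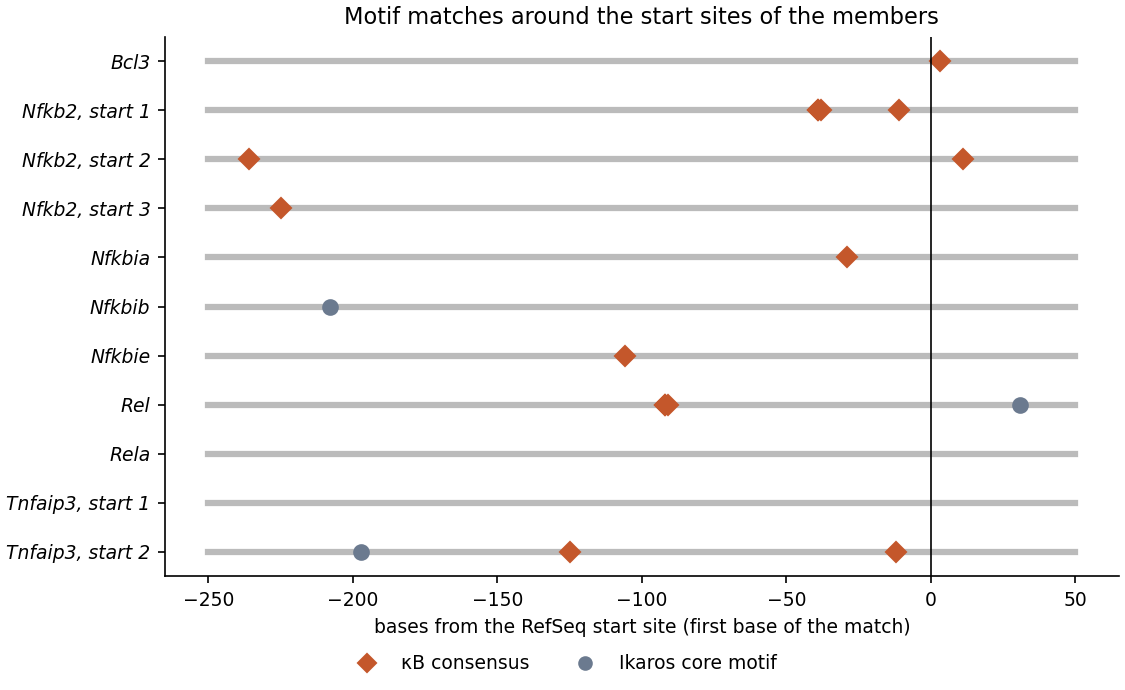
Positions of kappaB consensus matches (diamonds) and of the Ikaros core motif TGGGAA (circles) in the 11 windows of 300 bases, on an axis of bases from the RefSeq start site. Matches to the kappaB consensus lie in 8 windows, of Bcl3, Nfkb2, Nfkbia, Nfkbie, Rel and Tnfaip3, and windows of Nfkbib, Rela and 1 Tnfaip3 start hold none.

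The arrays had median intensities between 100.2 and 107. Ikzf1 lay at log2 levels of 11.85, 11.78 and 11.98 on the pMIG arrays and 13.09, 13.14 and 13.06 on the pMIG-IKZF1 arrays, so the labels matched the transduced gene (limma adjusted p = 0.0021). As a measure of background, 95% of 1194 olfactory and vomeronasal receptor genes lay below a log2 level of 6.24. By the higher group mean, all 13 measured B-lineage markers lay above it. On single arrays Rag2 ran from 5.53 (pMIG replicate 2) to 8.95 (pMIG replicate 3), and Rag1 from 6.52 to 9.70 on the same arrays. In limma 0 of the 13 passed an adjusted p under 0.05. At an unadjusted p under 0.05, Cd79b and Pax5 were higher and Igll1 lower. Of markers of other cells, 3 of 15 for granulocytes and monocytes and 3 of 13 for T and NK cells lay above 6.24 likewise. So did 2 of 5 for erythroid and 4 of 10 for stromal cells. Of these 43, 0 passed an adjusted p under 0.05 in limma and 7 an unadjusted p under 0.05. Among all genes 2.25% and 18.4% did. At the unadjusted limit 2 T and NK cell, 1 erythroid and 3 stromal markers were higher. In the granulocyte and monocyte list 1 was lower, Lyz2 (6.42 with pMIG, 5.95 with pMIG-IKZF1), with groups apart. Among all genes 9.58% were higher and 8.84% lower. With the replicate block (3.36% of all genes higher, 3.85% lower) 1 of these 43 markers was higher. Their summed intensities ran from 814 to 863 against 794 to 894 (pMIG-IKZF1) for granulocytes and monocytes, from 603 to 624 against 656 to 773 for T and NK cells, from 3778 to 5226 against 5656 to 5921 for erythroid cells, and from 1798 to 2202 against 2424 to 2559 for stromal cells. The brightest of the erythroid list was Tfrc, which dividing cells of many kinds express, and of the stromal list Pecam1. In the T and NK cell list Cd3e (6.95 with pMIG, 7.34 with pMIG-IKZF1) and in the stromal list Col3a1 (6.86 and 7.17), Col1a2 (6.94 and 7.24) and Col1a1 (7.31 and 7.61) lay above background and read higher with pMIG-IKZF1, with groups apart for all but Col1a1. Col1a1 was the marker that was higher with the block (limma block adjusted p = 0.0499). Cd3d, Cd3g, Cd4, Klf1 and Pdgfra lay within the background range. The last 3 sums moved with the group, and their part in the results was not tested.

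Of the 9 genes, 3 rose with IKZF1, Nfkb2, Nfkbia and Relb, and 0 fell. The threshold was an adjusted p under 0.05 in limma over all genes, which 2.25% of them passed, 1.12% higher and 1.13% lower. At an unadjusted p under 0.05, 6 of the 9 were higher and 0 lower, where 18.4% of all genes passed, 9.58% higher and 8.84% lower. The numbers in the sample titles behaved as pairs, and with replicate number as a block 5 of the 9 were higher and 0 lower, where 3.36% of all genes were higher and 3.85% lower. The 2 genes added were Nfkbie and Bcl3. All 3 pMIG-IKZF1 arrays lay above all 3 pMIG arrays for 7 of the 9, against 15.2% of all genes, and the log2 difference, pMIG-IKZF1 minus pMIG, was above 0 for 8 of the 9, against 59.2%. Its median was 0.33 over the 9 and 0.03 over all genes. For a single gene, a 2-sided exact permutation test of the 6 values cannot go below p = 0.1, which it gave for each of the 7 genes whose groups did not overlap. The exact permutation test gave p = 0.3 for Nfkbib and p = 0.4 for Tnfaip3.

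**Figure D2:**
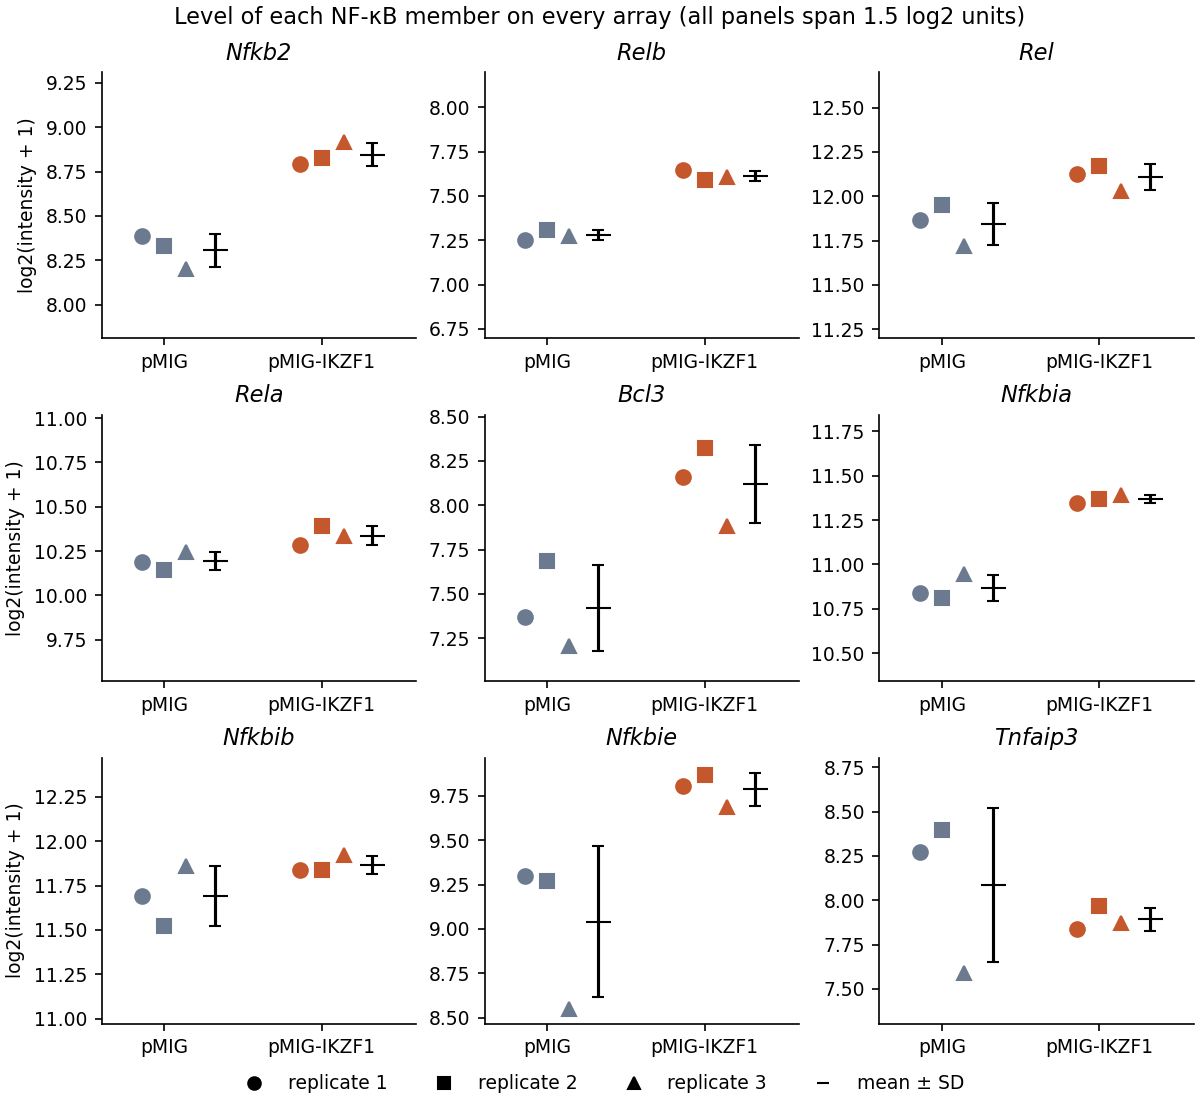
Log2(intensity + 1) of the 9 genes on each array, with the replicate number as the symbol and the mean ± SD (n = 3) beside each group; each panel spans 1.5 log2 units. For all but Nfkbib and Tnfaip3 the 3 pMIG-IKZF1 arrays lie above the 3 pMIG arrays, and pMIG replicate 3 lies apart for Nfkbie (8.55) and Tnfaip3 (7.59).

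The pair of the slower branch rose together. Nfkb2, which encodes the precursor of a DNA-binding subunit, read 8.39, 8.33 and 8.20 on the pMIG arrays and 8.79, 8.83 and 8.92 on the pMIG-IKZF1 arrays (log2 levels). The groups lay apart, with a gap between the nearest arrays wider than the range of either group. Nfkb2 was 1.45-fold higher, a log2 difference of 0.54 ± 0.07 (SE, n = 3 arrays per group; adjusted p = 0.024). Relb, whose product is the usual partner of the processed Nfkb2 protein, read 7.25, 7.31 and 7.27 with pMIG and 7.65, 7.59 and 7.60 with pMIG-IKZF1. It varied least of the 9 genes within the pMIG group (SD 0.03) and rose 1.26-fold (log2 difference 0.33 ± 0.05, adjusted p = 0.037). The call for Relb was lost when the prior variance followed intensity (adjusted p = 0.10), with median-centred arrays (0.16), quantile normalization (0.055) and cyclic loess (0.059), while that of Nfkb2 held in these 4 settings.

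Rel and Rela, of the fast branch, had smaller log2 differences than Nfkb2 and Relb and did not pass the threshold. Rel encodes c-Rel, the subunit known for its part in lymphocyte activation. It read 11.87, 11.95 and 11.72 with pMIG and 12.13, 12.17 and 12.03 with pMIG-IKZF1, groups that did not overlap. The log2 difference was 0.26 ± 0.08 (95% interval 0.07 to 0.46, adjusted p = 0.16, and 0.062 with the replicate block). Rela encodes the broadly expressed activating subunit, and read 10.19, 10.15 and 10.24 with pMIG and 10.29, 10.39 and 10.33 with pMIG-IKZF1. Its log2 difference of 0.14 ± 0.06 had a 95% interval from -0.0018 to 0.29 (adjusted p = 0.28), the narrowest among the 6 genes that did not pass. The differences between subunits were not tested, and the 95% interval of Rel held the Relb difference of 0.33.

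Among the inhibitors Nfkbia rose. It encodes IkB-alpha, the inhibitor that is known to be degraded and resynthesised within a single response. The pMIG arrays read 10.84, 10.81 and 10.95 and the pMIG-IKZF1 arrays 11.35, 11.37 and 11.39. The pMIG-IKZF1 values lay close together (SD 0.02) and well above the pMIG values (SD 0.07). Nfkbia was 1.42-fold higher, with a log2 difference of 0.50 ± 0.06 (adjusted p = 0.019), and did not pass on median-centred arrays (0.41, adjusted p = 0.058).

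Nfkbie, which encodes IkB-epsilon, had the largest difference of the 9 genes on all 6 arrays, although that of Bcl3 was larger without pMIG replicate 3 (0.59 against 0.50) or pMIG-IKZF1 replicate 3 (0.82 against 0.80). It read 9.30, 9.27 and 8.55 with pMIG and 9.81, 9.87 and 9.69 with pMIG-IKZF1. Every pMIG-IKZF1 array was above every pMIG array, but pMIG replicate 3 was far below the other arrays of its group. The log2 difference of 0.75 ± 0.20 (1.68-fold) had an adjusted p of 0.13, and of 0.034 with the replicate block. Without pMIG replicate 3 it was 0.50, with an adjusted p of 0.024. Nfkbib encodes IkB-beta, an inhibitor known for slower turnover. It read 11.69, 11.52 and 11.86 with pMIG and 11.84, 11.84 and 11.92 with pMIG-IKZF1, so that the groups overlapped at pMIG replicate 3. Its log2 difference was 0.18 ± 0.09 (95% interval -0.05 to 0.40, adjusted p = 0.37), and 0.092 without pMIG replicate 2 (adjusted p = 0.56). A rise of the size seen for Relb lies within that interval.

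Bcl3 encodes a nuclear IkB-like protein that works with DNA-binding subunits as a coactivator. It read 7.37, 7.69 and 7.21 with pMIG and 8.16, 8.32 and 7.88 with pMIG-IKZF1. In both groups replicate 2 was highest and replicate 3 lowest, and the 3 same-numbered differences were 0.79, 0.63 and 0.68. The log2 difference of 0.70 ± 0.16 (1.62-fold) had an adjusted p of 0.083, and of 0.0095 with the replicate block. Tnfaip3 encodes a ubiquitin-editing enzyme that ends NF-kB signalling upstream of IKK. It was the gene with a difference below 0, with 8.27, 8.40 and 7.59 on the pMIG arrays and 7.84, 7.97 and 7.87 on the pMIG-IKZF1 arrays. The pMIG arrays spread on both sides of the pMIG-IKZF1 arrays. The log2 difference was -0.19 ± 0.21 (95% interval -0.68 to 0.30, adjusted p = 0.64). Without pMIG replicate 3 it was -0.44 and passed (adjusted p = 0.033), without pMIG replicate 1 it was -0.10 (0.90) and without pMIG replicate 2 -0.037 (0.93).

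**Figure D3:**
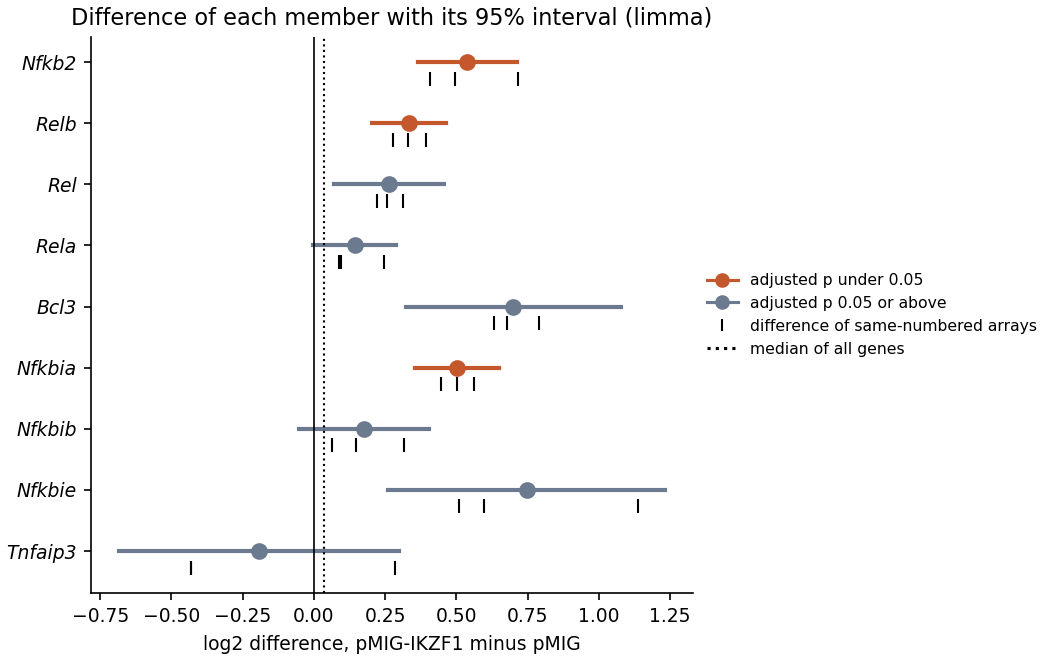
Log2 difference, pMIG-IKZF1 minus pMIG, of each gene as a dot with its 95% interval from limma; ticks below give the differences of the 3 same-numbered arrays, the dotted line the median of all genes (0.03). The interval crosses 0 for Rela, Nfkbib and Tnfaip3, and same-numbered differences of Bcl3 lie between 0.63 and 0.79.

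The calls changed when 1 array was left out, which also lowers the number of arrays in the fit, and the reason was not tested. Without pMIG replicate 1 or 2, or any of the 3 pMIG-IKZF1 arrays, 0 of the 9 genes passed in limma. In these 5 fits the number of all genes past the threshold fell from 448 to between 24 and 163. Without pMIG replicate 3, 4 were higher, Nfkb2, Nfkbia, Nfkbie and Relb, and Tnfaip3 was lower, with 947 genes past the threshold in all. That array stood at one end of the first principal component of all genes (-41.7, the others from -2.73 to 24.5). The size of the differences moved less than the calls: over all settings Nfkb2 ran from 0.44 to 0.58, Nfkbia from 0.41 to 0.54 and Relb from 0.24 to 0.35.

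**Figure D4:**
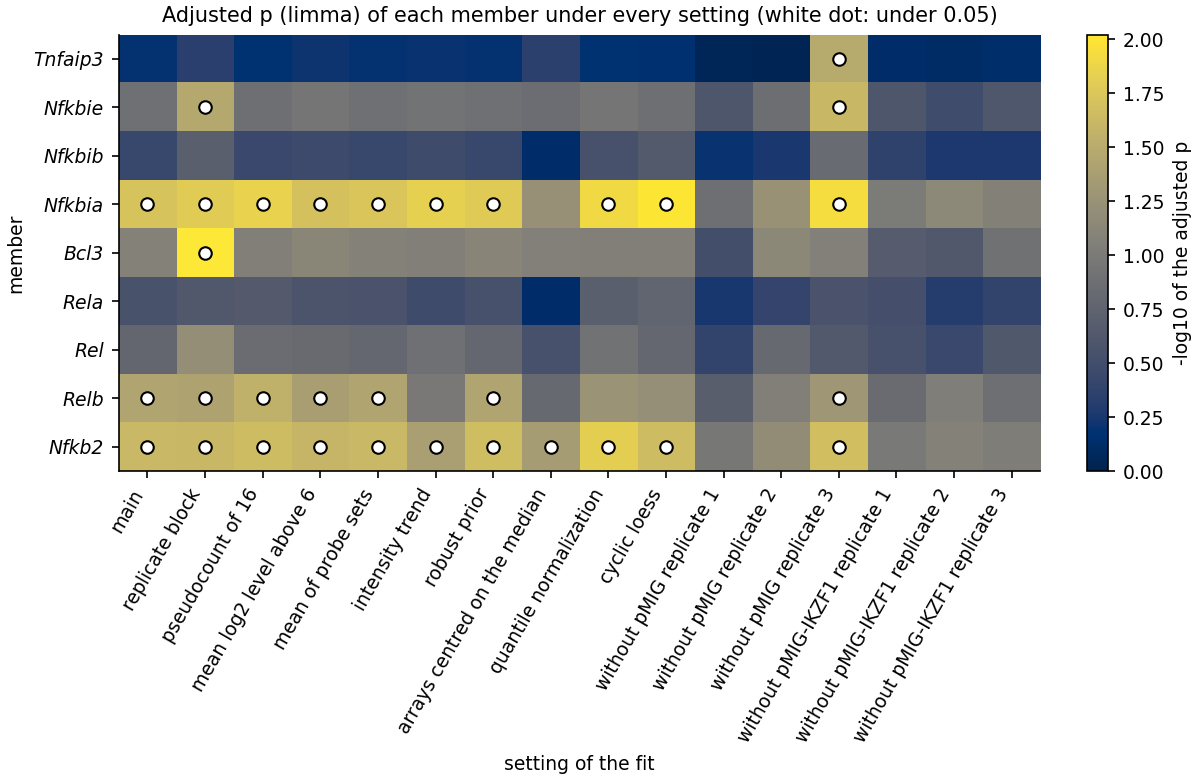
The negative log10 of the adjusted p of each gene (rows) in the fit as reported and in 15 alternatives (columns), where a white dot marks an adjusted p under 0.05. Nfkb2 has a dot in 10 of the 15 alternatives, Nfkbia in 9 and Relb in 6, and Rel, Rela and Nfkbib have none.

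The wider pathway was described by 5 lists of its other genes. Among ligands, 0 of 10 measured genes passed in limma or with the block, with a median log2 difference of 0.04. At an unadjusted p under 0.05, 2 were higher and 0 lower, where 9.58% and 8.84% of all genes were, 18.4% in sum. Tnf, the gene of tumour necrosis factor, had -0.42 (adjusted p = 0.54), with -0.81 without pMIG replicate 3 (adjusted p = 0.049) and -0.16 without pMIG replicate 2 (0.80). Il18 and Tnfsf14 lay within the background range. Among receptors, 1 of 19 fell and 18 did not pass, with a median of 0.08, where 1.13% of all genes fell. At an unadjusted p under 0.05, 4 were higher and 1 lower, where 9.58% and 8.84% of all genes were. With the block 2 were higher and 1 lower, where 3.36% and 3.85% of all genes were. The faller was Tlr4, the receptor for bacterial lipopolysaccharide. It read 8.73, 8.74 and 7.67 on the pMIG arrays and 6.45, 6.36 and 6.53 on the pMIG-IKZF1 arrays, so that pMIG replicate 3 lay between the others and the pMIG-IKZF1 arrays. Its log2 difference was -1.93 ± 0.29 (adjusted p = 0.029), and the pMIG-IKZF1 levels lay close above the background range, which limits its size. Cd40, a receptor that B cells use for T cell help, had 0.47 (adjusted p = 0.052, and 0.019 with the block), and passed as well with a pseudocount of 16, a level filter, a robust prior, quantile normalization and cyclic loess. Tlr9, a receptor for unmethylated DNA, had 0.80 (adjusted p = 0.13, and 0.028 with the block).

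Of 28 measured genes of IKK, its adaptors and upstream kinases, 0 passed in limma. At an unadjusted p under 0.05, 6 were higher and 0 lower, where 9.58% and 8.84% of all genes were, 18.4% in sum. With the block 0 were higher and 1 lower, where 3.36% and 3.85% of all genes were. The lower gene, named after its value was seen, was Ube2n (-0.32, block adjusted p = 0.045). The median log2 difference of the 28 genes was 0.06. The kinase genes Map3k7 and Prkcb had 0.25 and 0.22, and Sharpin, a part of the linear ubiquitin ligase, 0.26, with adjusted p of 0.075, 0.12 and 0.15. Of 18 other IkB-like proteins and brakes, 0 passed, and 4 were higher with the block (3.36% of all genes), at a median of 0.08. At an unadjusted p under 0.05, 6 were higher and 1 lower, where 9.58% and 8.84% of all genes were. Nfkbiz, which encodes a nuclear IkB-like protein, read 8.93, 9.14 and 8.68 with pMIG and 9.76, 9.76 and 9.47 with pMIG-IKZF1. Its groups lay apart by more than the spread of the pMIG-IKZF1 arrays, and its log2 difference of 0.75 ± 0.14 had an adjusted p of 0.053, and of 0.0099 with the block. It passed as well with a level filter, a robust prior, quantile normalization and without pMIG replicate 3. Tnip1, a partner of the Tnfaip3 product, had 0.35 (adjusted p = 0.10, and 0.045 with the block), and Rnf11 had 0.27 (0.063, and 0.052). The other 2 passing with the block, named after their values were seen, were Nlrc5 (0.56, block adjusted p = 0.021) and Nfkbid (0.42, 0.041).

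Of 39 genes known as NF-kB targets, 2 rose (1.12% of all genes did) and 37 did not pass, at a median log2 difference of 0.06. At an unadjusted p under 0.05, 9 were higher and 2 lower, which is to be read against the 9.58% and 8.84% of all genes. Cd83, a surface marker of activated B and dendritic cells, read 6.29, 6.21 and 6.37 on the pMIG arrays and 6.86, 6.84 and 6.77 on the pMIG-IKZF1 arrays. The pMIG levels lay at the edge of the background range, 1 of them within it, which limits the size of the difference of 0.53 ± 0.07 (adjusted p = 0.019). Bcl2l1, the gene of the anti-apoptotic protein BCL-XL, read 10.64, 10.49 and 10.76 against 11.35, 11.17 and 11.28 and rose by 0.64 ± 0.09 (adjusted p = 0.027). Neither Cd83 (adjusted p between 0.013 and 0.13 over the alternatives) nor Bcl2l1 (between 0.012 and 0.16) passed on median-centred arrays, and Cd83 did not pass after cyclic loess. Like Tlr4, both passed without pMIG replicate 3 and did not without any other single array. Icam1, an adhesion molecule gene, had 0.40 (0.058, and 0.026 with the block). With the block 5 targets were higher and 1 lower, where 3.36% and 3.85% of all genes were. Beside Cd83, Bcl2l1 and Icam1, the higher ones were Ccr7 (0.63, block adjusted p = 0.027) and Cd86 (0.33, 0.039). The lower one was Myc (-0.39, 0.041). These last 3 were named after their values were seen, and Cd86 lay within the background range. The medians of the 5 lists lay between 0.04 and 0.08, against 0.33 for the subunits and inhibitors and 0.03 for all genes. By the higher group mean, 9 of 9 subunits and inhibitors, 17 of 18 brakes and 27 of 28 IKK-list genes lay above background. For targets it was 24 of 39, for receptors 12 of 19, for ligands 4 of 10 and for all genes 12668 of 19936. The part of these shares in the contrast of medians was not tested.

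**Figure D5:**
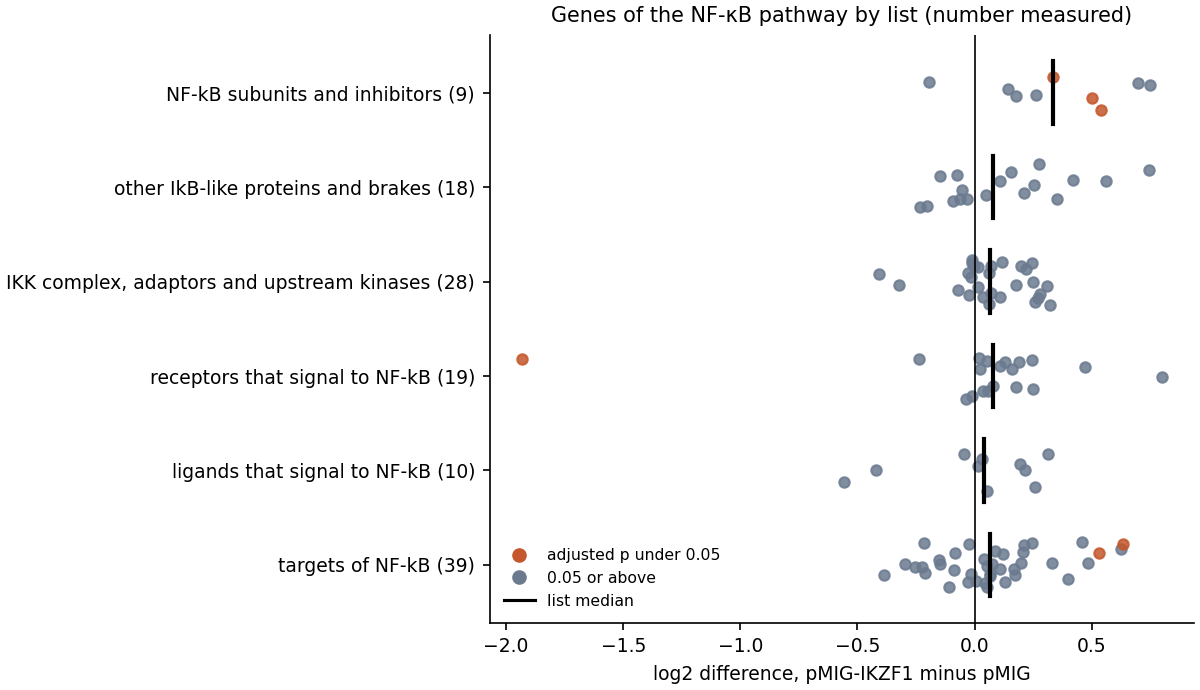
Log2 difference, pMIG-IKZF1 minus pMIG, of every measured gene of the NF-kB subunits and inhibitors and of the 5 pathway lists, with list medians as vertical bars and genes past the threshold in orange. The subunits and inhibitors have a median of 0.33, the other lists medians of 0.04 to 0.08, and Tlr4 lies apart at -1.93.

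The mean of the centred values of Nfkb2, Nfkbia and Relb was -0.22, -0.23 and -0.24 on the pMIG arrays and 0.21, 0.21 and 0.26 on the pMIG-IKZF1 arrays. Over these 6 arrays the genes nearest to it by root mean square distance were Tmsb10 (0.024 log2 units), Sema4b (0.027), Spib (0.038), Klhl42 (0.038) and Rgs14 (0.039). They encode an actin-binding thymosin, a semaphorin, an Ets family transcription factor, a substrate adaptor of a ubiquitin ligase and a regulator of G protein signalling. Their log2 differences lay between 0.42 and 0.47. Relb and Bcl3 lie near each other on chromosome 7 in the RefSeq gene order, with 10 protein-coding genes between them. Of the 8 of these that were measured, 0 passed in limma, and their log2 differences ran from -0.01 to 0.32 with a median of 0.09, against 0.33 for Relb and 0.70 for Bcl3.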

How the data were processed

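Total RNA of 6 samples was hybridised to Affymetrix arrays, and the values the authors deposited are probe set intensities. They were normalized by RMA per the submitters' processing notes, and the sources used here give no version, parameters or annotation for it. The values run from 11.1 to 23523, so they were read as linear, and log2(intensity + 1) was computed. RMA sets the arrays to a common distribution, which can reduce a shift shared by most genes. Of 35421 probe sets, 21789 had 1 symbol in the platform's gene table, 1621 several and 12011 none here. Symbols were updated by gene number (21698) or accession (3), or kept (88). The brightest probe set stood for a gene.

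Groups were taken from the titles. The comparison used lmFit and eBayes of limma 3.58.1 (R 4.3.3, no trend, 2-sided, Benjamini-Hochberg over all 19936 genes). The fit was checked on simulated data. Same-numbered arrays deviated together from their group means (r = 0.24, 0.60 and 0.66 across genes), each above the limit of 0.1 for pairing, and 1 differently numbered pair also did (r = 0.11). The pairing comes from the data alone, and blocked values stand where they change a call. Alternatives were the block, pseudocount, filter, probe set rule, prior, scaling and leaving out each array. The genes and lists were chosen with earlier results of these data known. Named genes were the 10 listed, Ikzf1, per pathway list those past the threshold, filled up to 3 with the smallest p, and the 5 nearest in pattern. Arrays carry no read depth, and their number limits the precision.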

Additional observations from a re-analysis of the deposited data

How the results depend on the processing

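All 9 genes kept the sign of their log2 difference in each of the 15 alternatives run. The block, the level filter, the probe set rule, the intensity trend and the robust prior leave these differences unchanged. The sign could therefore move only with the pseudocount, the scaling or an array left out. With the replicate block 670 genes were higher and 768 lower over all, 5 of the subunits and inhibitors were higher, and 11 of the 114 genes of the pathway lists were higher and 3 lower, against 2 and 1 without it. Centring arrays on their medians left 110 higher and 279 lower genes (28.3% higher, against 49.8%), with 1 of the subunits and inhibitors, Nfkb2, and 0 pathway genes higher. That centring lowers all differences by 0.097, the shift between the groups' array medians. Pathway genes higher numbered 6 with a pseudocount of 16, 4 above a log2 level of 6, 4 with a robust prior and 5 after quantile normalization. Over all genes the higher ones in these settings numbered 276, 228 (of 13381 tested), 239 and 281, against 223 in the fit as reported. The causes were not tested. Leaving out 1 array gave between 21 and 360 higher and between 2 and 587 lower genes. It gave between 0 and 4 higher and between 0 and 1 lower subunits and inhibitors, and between 0 and 5 pathway genes each way. The lowest counts came without pMIG replicate 1 (28 genes) or pMIG-IKZF1 replicate 1 (24), and the highest without pMIG replicate 3 (947). Testing every probe set on its own, added after seeing the data, gave the same 3 genes. Each of these has 1 probe set, so their differences could not change there. Among the pathway genes named, levels near or within background limit Cd83, Tlr4, Il18, Tnfsf14 and Cd86.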
